A study of Nothobranchius furzeri with 20 samples.

Results

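The 100 most abundant transcripts of killifish skin were the 100 genes with the highest mean level over 20 RNA-seq libraries, of 26739 genes counted. The level, CPM, was the number of reads of a gene for every 1000000 counted reads of its library. The libraries came from skin of male Nothobranchius furzeri, the turquoise killifish, of strain MZM-04/10p, and each fish group had been given rotenone at a stated percentage of its LC50, the concentration lethal to 50% of animals. There were 5 libraries in each of 4 groups, namely 9-week-old fish at 0.1%, 1% or 10% and 27-week-old fish at 1%. Untreated fish were not analysed here, so every difference is between doses or ages of treated fish. Replicate numbers only name libraries, and nothing states that each came from a separate fish, so a p-value speaks only of the spread among these libraries.

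Rotenone blocks complex I of the mitochondrial respiratory chain. Fish skin is a living epidermis over a dermis that carries scales, pigment cells, nerves and vessels, and a piece of skin can bring along underlying muscle. In such a tissue a short list of genes takes a large part of all messenger RNA, and since every level is a share of the library, a rise in one abundant transcript lowers the CPM of all others. In bulk RNA, fewer cells of a type and less RNA per cell cannot be told apart. The files list genes by identifier alone and do not pair identifiers with names. The reference table of 38438 genes matched 0 of the 26739 identifiers, so no member could be given a name or a role, and the skin origin could not be checked against marker genes. Members are called here by their rank in mean CPM.

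The libraries held 21770720 to 29017737 counted reads each. Of the members, the lowest count in any library was 1444 reads, for which counting error alone is 2.63%, so depth did not limit these values. The 0.1% libraries were counted in a table of their own, and dose and table therefore cannot be told apart in comparisons with 0.1%. Over the 18808 genes tested in the fit of 20 libraries, replicates 1 and 4 at 0.1% stood apart from the rest. Their mean Spearman correlation with the other 19 libraries was 0.876 and 0.899. At 10%, replicates 1 and 2 followed with 0.907 and 0.924, and the remaining 16 libraries lay between 0.934 and 0.956. The shares of all members, of ranks 2, 3 and 6 and of the block that holds them, and the comparisons by dose, are given with and without these libraries.

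The members held between 29.8% and 46.1% of all reads. Their share was 31.5%, 39.4%, 46.1%, 29.8% and 39.6% in replicates 1 to 5 at 0.1%, a mean of 37.3% ± 6.65 (SD, n = 5). It was 41.1%, 36.6%, 32.1%, 32.2% and 40.4% at 1% and 9 weeks, a mean of 36.5% ± 4.32. At 10% it was 40.4%, 41.4%, 44.2%, 41.8% and 41.8%, a mean of 41.9% ± 1.405. The 10% libraries were the most alike of the 9-week libraries, and they overlapped with both lower doses. In 27-week fish at 1% the members held 34.3%, 33.4%, 33.0%, 33.4% and 34.9% of reads, a mean of 33.8% ± 0.753. All 5 of these values lay below all 5 values at 10% and inside the range at 1% and 9 weeks. Libraries at 27 weeks and at 10% differ in both age and dose. Age and dose cannot be told apart here or wherever those groups are set side by side below. Counting error was at most 0.0206 percentage points (95% Wilson interval, which covers counting error only), far under the spread between libraries. Without replicates 1 and 4 the mean at 0.1% was 41.7% ± 3.84 (n = 3), and without replicates 1 and 2 that at 10% was 42.6% ± 1.399 (n = 3). No p-value is given for these shares, because the members were chosen on the same values.

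The number of genes needed to hold 50% of a library's reads ran from 133 in replicate 3 at 0.1% to 508 in replicate 4 of the same group. Ranks 51 to 100 together held a steady 7.46% ± 0.723 at 0.1%, 7.71% ± 0.602 at 1%, 7.88% ± 0.582 at 10% and 8.14% ± 0.387 at 27 weeks. Ranks 11 to 50 held group means from 11.7% to 12.9%. The variation between libraries was concentrated in the 10 highest ranks, whose share ran from 12.03% to 24.7%. Their group means were 17.6% ± 4.74 at 0.1%, 17.04% ± 5.20 at 1%, 21.2% ± 1.65 at 10% and 13.502% ± 0.703 at 27 weeks.

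**Figure D1:**
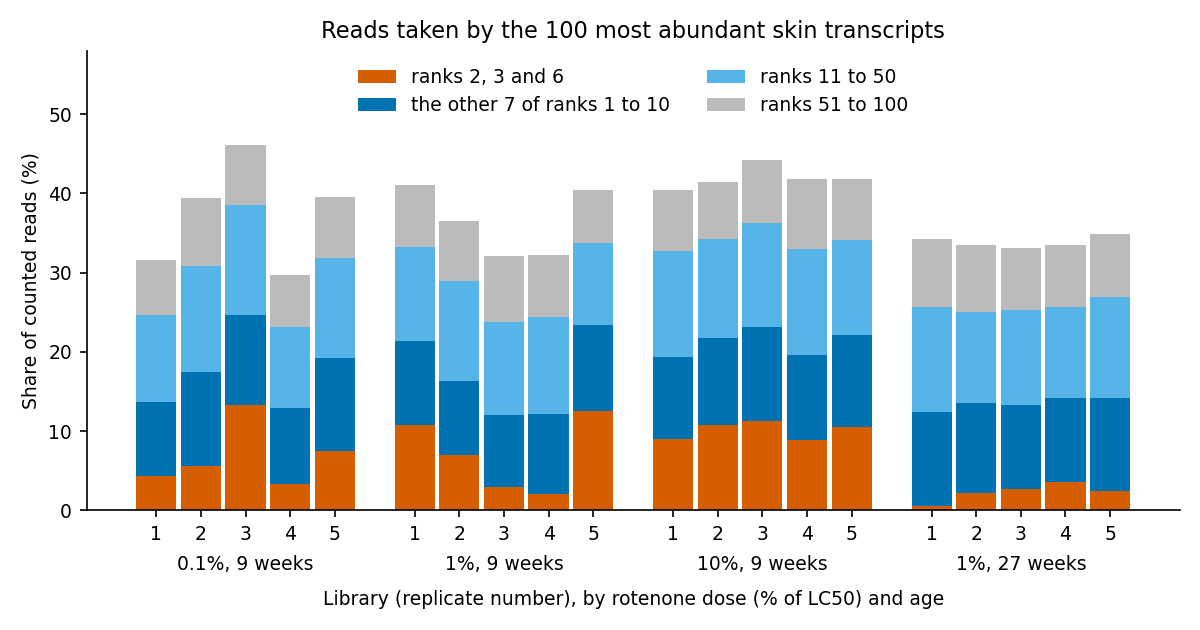
Share of all counted reads (percent) held by the 100 members in each of the 20 libraries, stacked by class of rank and grouped by dose and age. Ranks 2, 3 and 6 run from 0.548% to 13.3% of reads, while ranks 51 to 100 stay between 6.65% and 8.78% in every library.

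Of the 10 highest ranks, the 3 with the largest coefficients of variation (SD over mean of the 20 libraries, 59.4% to 63.9%) were rank 2 (Nfu_g_1_018490), rank 3 (Nfu_g_1_023149) and rank 6 (Nfu_g_1_013298). Together they held 4.35%, 5.63%, 13.3%, 3.37% and 7.47% of reads at 0.1%. They held 10.8%, 6.96%, 2.89%, 2.02% and 12.49% at 1% and 9 weeks. The 9-week groups at 0.1% and 1% each spread widely, with replicates of the same dose several-fold apart. At 10% the trio held 9.05%, 10.7%, 11.2%, 8.86% and 10.51%, within which no library was low. In 27-week fish it held 0.548%, 2.17%, 2.75%, 3.56% and 2.41%, all below the 10% libraries but overlapping with replicates 3 and 4 at 1% and 9 weeks and replicate 4 at 0.1%. The trio's mean was 6.82% ± 3.91 at 0.1%, or 8.79% ± 3.98 without replicates 1 and 4, 7.03% ± 4.64 at 1%, 10.1% ± 1.06 at 10%, or 10.2% ± 1.22 without replicates 1 and 2, and 2.29% ± 1.11 at 27 weeks. The highest library was 24.2 times the lowest. The other 97 members held 30.4% ± 3.40, 29.4% ± 0.966, 31.9% ± 1.05 and 31.5% ± 1.59 of reads in the same order of groups, with the lowest and highest libraries at 26.4% and 33.7%.

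Rank 1 (Nfu_g_1_001437) had a mean level of 30273 CPM, or 3.03% of all reads, and was among the 7 highest genes of every library. Its levels were 17173, 18653, 36873, 28061 and 30049 CPM at 0.1%, and 31708, 14869, 19094, 18759 and 48840 CPM at 1% and 9 weeks. They were 26286, 38438, 39800 and 28179 CPM in replicates 1 to 4 at 10% and 38126 CPM in replicate 5, and 30476, 40906, 33606, 36112 and 29453 CPM at 27 weeks. The 4 groups overlapped throughout. Rank 2 had levels of 16571.0, 22679, 49842, 14474 and 28655 CPM at 0.1%, and 39084, 25690.3, 11749, 9442 and 45893 CPM at 1% and 9 weeks. At 10% it had 32849, 39270.2, 40258, 32753 and 36836 CPM, and at 27 weeks 1760.2, 8013, 10491, 13281 and 9010 CPM. The 27-week libraries overlapped with 9-week replicates 3 and 4 at 1% and lay below all libraries at 0.1% and 10%.

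Rank 3 kept close to rank 2, with 1949, 7687, 9354, 12356 and 8619 CPM at 27 weeks against 38917, 25574, 9681, 5927 and 45210.5 CPM at 9 weeks and the same dose. The ratio of rank 2 to rank 3 stayed between 0.903 and 1.59 in the 20 libraries, with a median of 1.03. That of rank 6 to rank 3 stayed between 0.678 and 0.908, with a median of 0.745. By contrast the ratio of rank 2 to rank 1 ran from 0.0578 to 1.73, a 29.9-fold span. Whether such near-fixed ratios involve reads shared between similar sequences was not tested.

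The gene in first place changed with the library. In 27-week fish rank 1 led in 5 of 5 libraries. At 10% rank 3 led in 4 libraries and rank 2 in 1. At 1% and 9 weeks rank 2 led in 2 libraries, and ranks 1, 4 and 5 led in 1 each. Ranks 1 and 5 each led in 2 of the 0.1% libraries and rank 2 in 1. Rank 4 (Nfu_g_1_019825), at a mean of 18995 CPM, was the steadiest of the 10 highest, with a coefficient of variation of 19.3%. Rank 5 (Nfu_g_1_002091), at 18567 CPM, had one of 33.4%, and rank 6, at 17464 CPM, one of 62.6%.

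**Figure D2:**
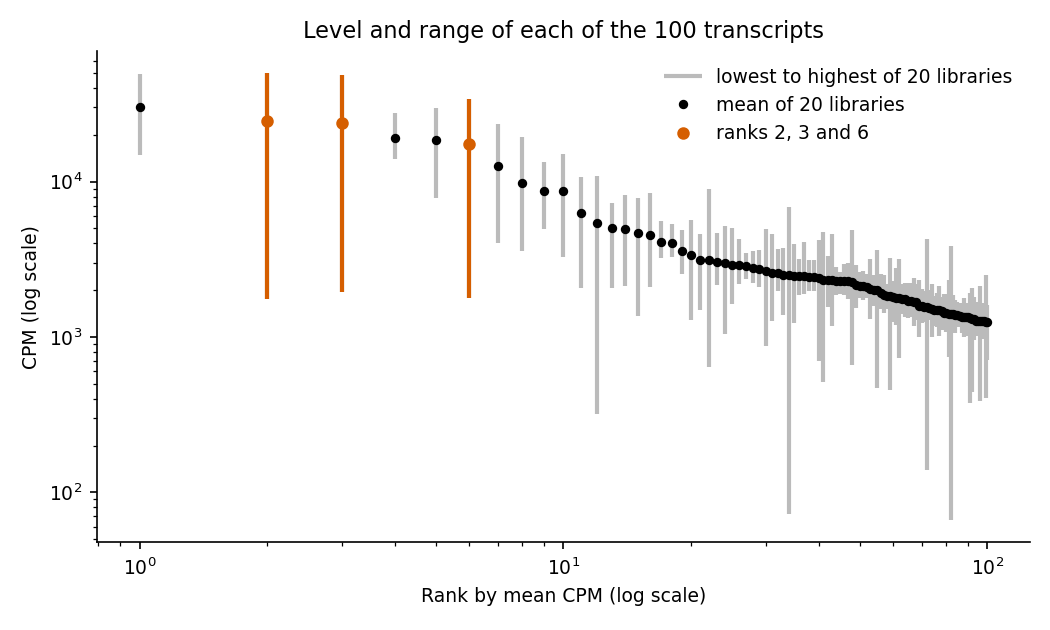
Level of each member in CPM against its rank, both on log axes. Points are means over 20 libraries and lines join the lowest and highest library. Ranks 2, 3 and 6, in orange, reach down to 1760.2, 1949 and 1769 CPM and up to 49842, 48779 and 33988 CPM.

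Membership in the list was stable for most of it. In every one of the 20 libraries, 60 members were among the library's own 100 highest genes, and 159 genes reached that set in at least 1 library. Choosing the list within 1 group kept 93 of the 100 members at 0.1%, 96 at 1% and 9 weeks, 94 at 10% and 91 at 27 weeks. At the edge of the list the differences were small beside the spread, with mean levels of 1272, 1246 and 1243 CPM for ranks 98, 99 and 100 and 1241, 1230.0 and 1228 CPM for ranks 101, 102 and 103. Rank 101, just outside, had an SD of 724 CPM. In 8 members the level was high enough for the library's own 100 in fewer than 10 libraries.

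Rank 82, the most variable member, was one of these, with a coefficient of variation of 86.5%. Its levels were 3165, 3834, 1230.3, 504 and 916 CPM at 0.1% and 3115, 473, 1417, 3481 and 66.3 CPM at 1% and 9 weeks. At 10% they were 3019.9, 346, 1159, 1173 and 642 CPM, and at 27 weeks 668, 179, 593, 427 and 1742 CPM. High and low libraries occurred in every group. Rank 45 was the steadiest member, with a coefficient of variation of 9.21% and all libraries between 1890 and 2616 CPM. For 51 members the highest library was less than 2 times the lowest, and for 8 it was more than 10 times. The median coefficient of variation of the members was 19.3%, against 23.98% for ranks 101 to 1000 and 31.7% for all 18808 genes tested in the fit of 20 libraries.

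The order of the members was most alike between 10% libraries and least alike between 9-week libraries at 1%. Over the 100 members, the mean Spearman correlation between pairs of libraries was 0.902 within 10%, 0.819 within 0.1%, 0.814 within 27 weeks and 0.680 within 1% at 9 weeks. Between 27-week libraries and those of the 9-week groups it averaged 0.684 to 0.711. Between 9-week groups it averaged 0.754 for 0.1% with 1%, 0.762 for 1% with 10% and 0.830 for 0.1% with 10%. The 1% libraries at 9 weeks were thus no more like each other in order than like any other group. For the older fish at the same dose the mean was 0.695.

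Gene lengths were recovered from the ratio of deposited counts to deposited RPKM, and they change the order of levels. Members were short, with a median of 1891 bases (330 to 88545) against 3641.5 bases for ranks 101 to 1000 and 2613 bases for tested genes with a length. Below 1000 bases lay 25 members, or 25%, against 17.7% of the tested genes. Below 2000 bases lay 53 members, or 53%, against 39.2% of the tested genes. Ranks 1, 2, 3 and 6 were long for the list, at 8522, 9459, 6785 and 9137 bases. Rank 15, of only 342 bases, had the highest level per length at 13553 CPM per 1000 bases, followed by rank 5 at 10241 and rank 4 at 8209. On the same scale rank 1 had 3552 CPM per 1000 bases and came 13th, rank 3 came 14th, rank 2 came 27th and rank 6 came 42nd. Ranks 25 and 43, of 88545 and 67190 bases, had the lowest levels per length of all members, at 33.0 and 34.4 CPM per 1000 bases. Had the list been drawn up per length, 62 of the 100 members would have been on it.

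Members varied together in blocks. Across the 20 libraries the 4950 pairs of members had a median Spearman correlation of log2 CPM of 0.16, and 893 pairs, or 18.0%, exceeded 0.8. Among ranks 101 to 1000 the median was 0.13 and 1.70% of pairs exceeded 0.8. These correlations are a description of 20 points that share library totals and groups. Grouping members whose average correlation was at least 0.6 gave 8 blocks of 3 or more genes, which held 93 members. Since the blocks were built from these levels, their levels by group are given without a test.

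Block A was the largest, with 48 members between rank 17 and rank 98, a median correlation within the block of 0.87 and a median with the other members of -0.05. Its members were short, with a median of 1127 bases, and steady, with a median coefficient of variation of 12.9%. The block held 8.37% ± 0.572 of reads at 0.1%, 9.03% ± 0.946 at 1%, 9.25% ± 0.771 at 10% and 10.8% ± 0.853 at 27 weeks. The 27-week libraries ran from 10.2% to 11.96% and those at 1% and 9 weeks from 8.15% to 10.503%, so the ages overlapped. Judged on deviations from the group means, 43 of the 48 stayed together, and without replicates 1 and 4 at 0.1%, 47 did. The borders between blocks were less stable than their cores, and some blocks merged. Without those libraries 47 members of block A and 4 of the 5 members of block F fell into 1 group, as did blocks D and H. On deviations from the group means blocks B and G fell into 1 group, with all 11 and all 5 of their members.

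Block C held the trio of ranks 2, 3 and 6 and ranks 12, 24, 55, 91, 92 and 100. Its genes were long, with a median of 5085 bases, and its median correlation was 0.86 within the block and -0.35 with the other members. The block took 8.26% ± 4.49 of reads at 0.1%, or 10.55% ± 4.52 without replicates 1 and 4, 8.52% ± 5.18 at 1%, 12.1% ± 1.23 at 10%, or 12.2% ± 1.38 without replicates 1 and 2, and 3.06% ± 1.35 at 27 weeks. At 27 weeks no library exceeded 4.57%, and at 10% none lay below 10.7%. At 1% and 9 weeks the libraries spanned 2.76% to 14.55%. That range covered the 10% libraries and those at 27 weeks except replicate 1, which lay below it at 0.936%. Block C kept 9 of its 9 members together on TMM-scaled levels, where 3 other members joined it. On deviations from the group means it kept 8 of 9, and 0 others joined. TMM (trimmed mean of M-values) scales each library by a factor that assumes most genes do not differ between libraries.

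Block B, with 11 members including ranks 5, 8, 11, 15 and 16, held 6.59% ± 2.19 at 0.1%, 5.84% ± 2.35 at 1%, 5.83% ± 1.499 at 10% and 4.13% ± 1.505 at 27 weeks, with overlap throughout. Block D, with 6 members led by rank 1, held 4.55% ± 1.24, 4.49% ± 1.98, 5.66% ± 0.989 and 5.96% ± 0.743 in that order. Block G, with 5 members led by rank 7 and including the very long ranks 25 and 43, held 1.67% ± 0.120 at 10% against 2.20% ± 0.924 at 1% and 2.55% ± 0.734 at 27 weeks. Its highest 10% library, at 1.82%, was above the lowest 1% library, at 0.8503%. Blocks B and G were not separate in every setting. On TMM-scaled levels 10 of the 11 members of block B and 4 of the 5 of block G fell into 1 group. Block F, led by rank 4, held 2.62%, 2.63%, 2.47% and 3.40% of reads, block E 1.77%, 1.398%, 1.74% and 1.18%, and block H, led by rank 10, 1.15%, 1.07%, 1.54% and 1.22%.

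Some blocks ran against each other across libraries. The shares of blocks B and H had a Spearman correlation of -0.80 over the 20 libraries, blocks G and H one of -0.79 and blocks B and D one of -0.75. Block C ran against block F at -0.70 and against block A at -0.60, while blocks D and H went together at 0.75 and blocks A and F at 0.68. Shares of 1 total are not independent. How far that bears on these correlations was not tested. On TMM-scaled levels the median correlation between members was 0.37, and 0 pairs lay under -0.8, against 7 pairs on CPM.

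**Figure D3:**
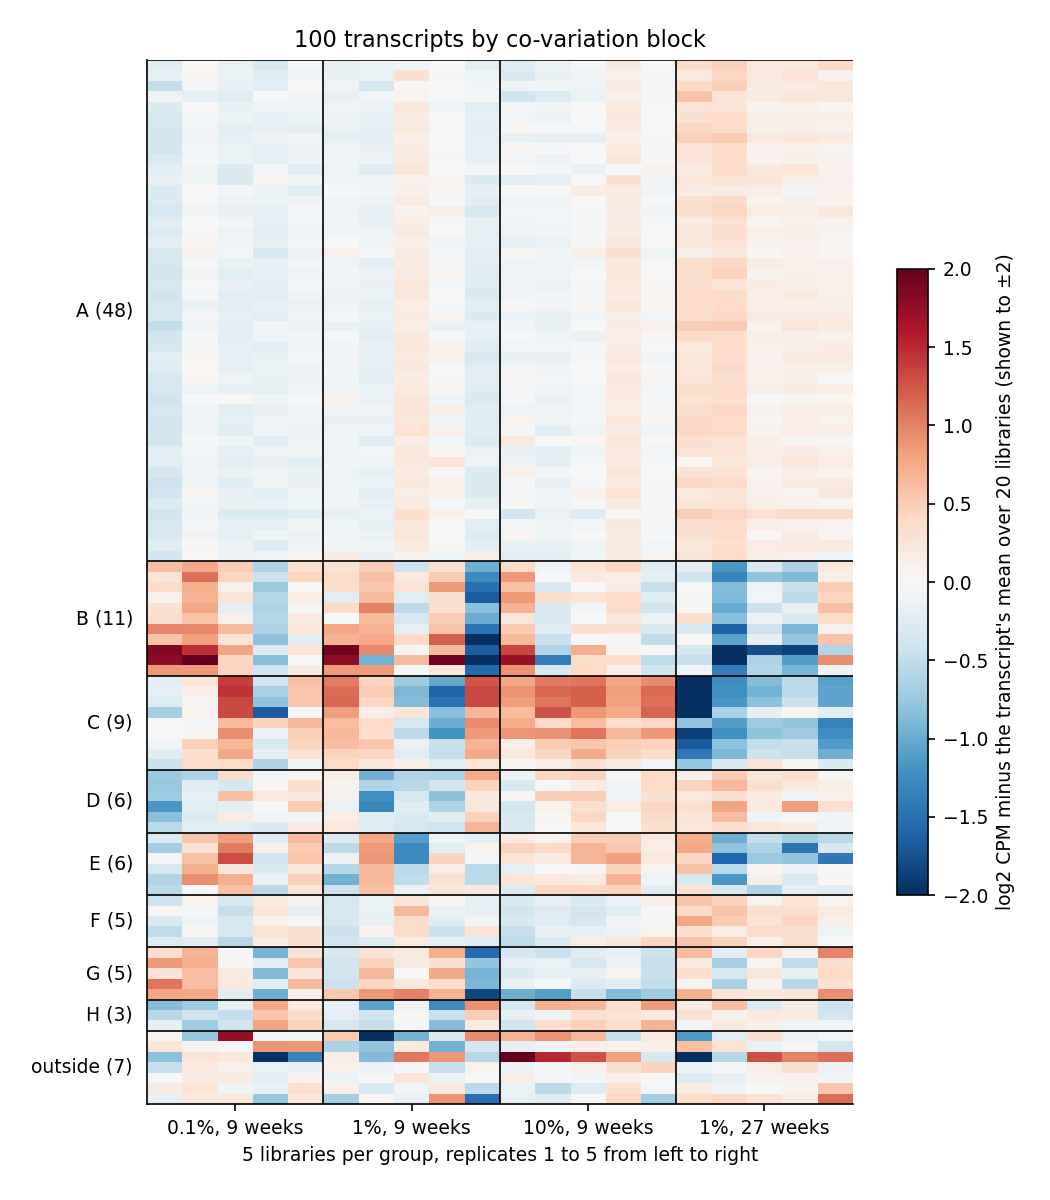
Log2 CPM of each member minus its mean over 20 libraries, limited to ±2, with members ordered by block (vertical) and libraries by dose and age (horizontal). Block A is pale throughout, whereas block C is low in all 27-week libraries and uneven among replicates at 0.1% and 1%.

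**Figure D4:**
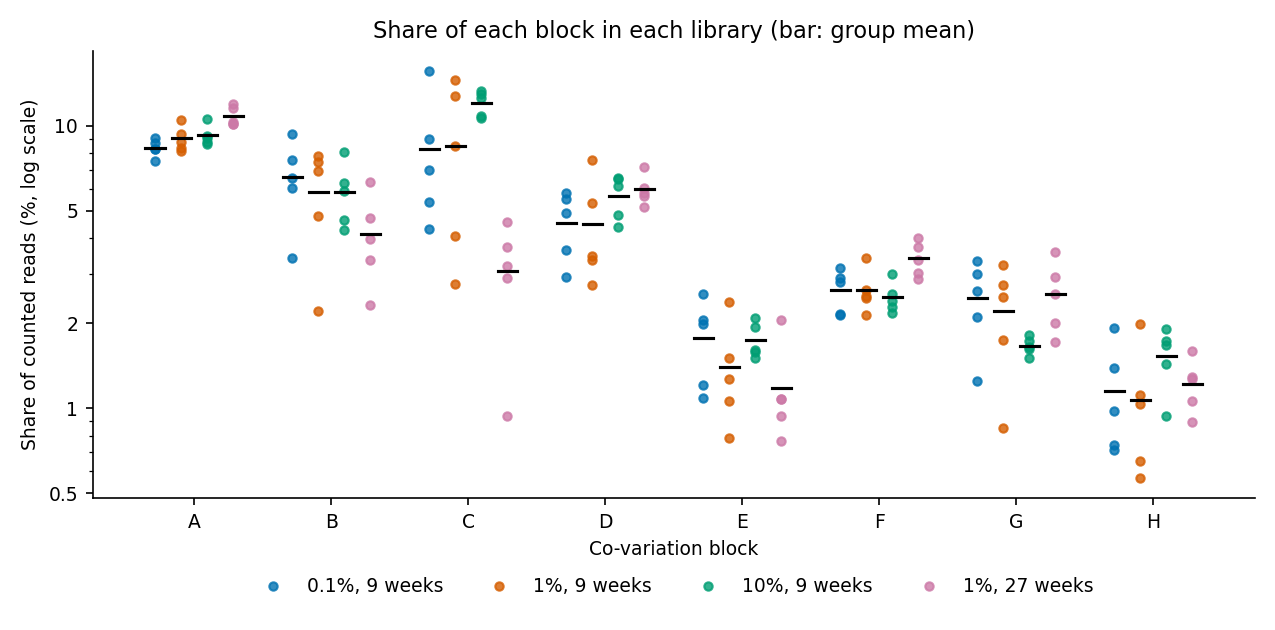
Share of reads (percent, log axis) of each block in each library, by group, with a bar at the group mean. Block C ranges from 0.936% to 15.6%, and block A stays between 7.52% and 11.96%.

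Changes were then tested gene by gene with edgeR's quasi-likelihood test on counts with TMM scaling, adjusted over all genes tested by the Benjamini-Hochberg method, and all 100 members were tested in each comparison. TMM factors were 0.880 to 0.924 at 10%, 1.00 to 1.12 at 1% and 9 weeks, 1.02 to 1.13 at 27 weeks and 0.833 to 1.19 at 0.1%. The groups at 10% and 1% did not overlap in this factor, so CPM and TMM-scaled CPM give different pictures, and both are given. These factors, and all TMM-scaled CPM printed, come from scaling the 20 libraries together. The fits of 15 libraries, for 10% against 1% and for age, computed factors of their own. Printed levels are therefore not on exactly the scale of those fits. The 1% libraries at 9 weeks serve in 3 of the 4 comparisons, which are therefore not independent of each other.

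Between 10% and 1% at 9 weeks, 9 members passed an adjusted p of 0.05 as higher at 10% and 0 as lower. Over all 18473 genes tested, 4.22% were called higher and 4.88% lower. At an unadjusted p under 0.05, 46 members were higher (13.2% of all genes) and 1 lower (12.4% of all genes), and DESeq2 called 34 higher and 1 lower, against 6.68% and 7.57% of all genes. The fitted log2 change was above 0 in 90 members and in 53.8% of all genes tested, with a median of 0.28 for the members against 0.04 for all genes. The size of the change and the calls depended on scaling. With library totals alone 70 members were above 0, the median of all genes moved by -0.22 to -0.18 and that of the members to 0.05, with 0 members called higher (2.21% of all genes) and 1 lower (16.9%). The distance between both medians was 0.24 on either scale. In CPM, 0 members had groups without overlap in either direction (0.682% of genes higher, 12.2% lower). In TMM-scaled CPM 18 members had all 10% libraries above all 1% libraries (3.06% of genes) and 0 had them below (3.16% of genes).

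Rank 81 (Nfu_g_1_022922, 10444 bases) was one of the members called higher at 10% than at 1%. Its TMM-scaled levels were 1073, 947, 1190.3, 696 and 1513 CPM at 1% and 1174, 1837, 2109.8, 1912 and 2367 CPM at 10%. Replicate 1 at 10% lay inside the range at 1%, and the other 4 lay above it. The log2 change was 0.80 (SE 0.20, edgeR adjusted p = 0.0258), and it passed in 7 of 10 fits with 1 library left out. Rank 13 (Nfu_g_1_017018, block D) rose from 5053, 2007, 3407, 2557 and 5461 to 5535, 7286, 7612, 5133 and 6475 TMM-scaled CPM, again with overlap in a single library. Its log2 change was 0.80 (SE 0.23, edgeR adjusted p = 0.0477), and it passed in 2 of 10 such fits. Neither mean rose steadily with dose. Mean CPM at 0.1%, 1% and 10% was 1449, 1130 and 1694 for rank 81 and 5132, 3839 and 5772 for rank 13. Between 1% and 0.1% neither was called. The log2 change was -0.42 for rank 81 (SE 0.24, edgeR adjusted p = 0.25). For rank 13 it was -0.54 (SE 0.28, edgeR adjusted p = 0.20). Dose and table cannot be told apart in that step.

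Rank 31, in none of the blocks, had TMM-scaled levels of 1565, 1366, 2545, 1185 and 1907 CPM at 1% and 2493, 2541, 2957, 2979.6 and 2882 CPM at 10%. Replicate 3 at 1% reached into the 10% range. The log2 change was 0.69 (SE 0.20, edgeR adjusted p = 0.0473), and it passed in 1 of 10 such fits. The other 6 called members belong to block A and changed little in size, led by rank 84, of 399 bases, with 1272, 1109.8, 1368, 1238 and 1124 TMM-scaled CPM at 1% and 1794, 1483, 1573, 1842 and 1480.4 at 10%, which did not overlap. Its log2 change was 0.42 (SE 0.10, edgeR adjusted p = 0.0248). Ranks 36, 65, 75, 87 and 90 had log2 changes between 0.31 and 0.35. All 48 members of block A had a fitted log2 change above 0, with a median of 0.27. With library totals alone 37 of the 48 did, with a median of 0.05. Members of a block were grouped for varying together in these libraries, so a sign shared within a block is not a set of separate results.

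Block C, which is highest in CPM at 10%, had 9 of 9 fitted changes above 0 with a median log2 of 0.65, and 0 of the 9 passed. With library totals alone 8 of 9 were above 0, with a median of 0.47. Rank 2 had a log2 change of 0.65 (SE 0.47, edgeR adjusted p = 0.41), the spread among 1% libraries being as large as the difference. The largest fitted change among members was that of rank 34, at 1.17 (SE 0.71, adjusted p = 0.32), and the most negative was that of rank 59 in block G, at -1.10 (SE 0.36, adjusted p = 0.0687). The 9 calls rest on few libraries. Without replicate 1, 2, 4 or 5 at 1% the count of members called higher was 2, 0, 0 and 6, without replicates 1 to 5 at 10% in turn it was 1, 5, 2, 1 and 2, and without replicate 3 at 1% it was 12. The share of all genes called higher moved as well. It was 2.09%, 1.18%, 1.33% and 2.39% without replicate 1, 2, 4 or 5 at 1%, 5.65% without replicate 3, and 2.67% to 3.79% without 1 of the 10% libraries. Without replicates 1 and 2 at 10% together the members called higher numbered 2, against 1.28% of all genes.

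Between 27 and 9 weeks at 1%, 2 members passed as higher in older fish and 4 as lower, near the 2.08% and 2.4% of all genes called. At an unadjusted p under 0.05, 26 members were higher (10.9% of all genes) and 11 lower (12.1% of all genes). The fitted log2 change was above 0 in 69 members and in 47.7% of all genes tested, with a median of 0.18 for the members against -0.02 for all genes. Library totals alone moved the median of all genes to 0.03.

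The 4 members called lower all belonged to block C. Membership itself rested on mean CPM over 20 libraries, most of them from 9-week fish. Ranks 55, 91 and 92 averaged 784, 672 and 695 CPM at 27 weeks, below the mean of 1243 CPM of rank 100. They were thus members only through their 9-week levels, and their falls and p-values are not free of that choice. Rank 55 (Nfu_g_1_004335, 3198 bases) fell from 2657, 2090.4, 1061, 693 and 3057 TMM-scaled CPM at 9 weeks to 439, 656, 909.7, 909.0 and 705 at 27 weeks. Replicate 4 at 9 weeks overlapped with the older fish and the other 4 lay above them. The log2 change was -1.403 (SE 0.33, edgeR adjusted p = 0.0350). Rank 24, of 5085 bases, fell from 4104, 3385, 1906, 1263 and 5187 to 1464, 1129.6, 1517, 1376 and 1029 TMM-scaled CPM, with a log2 change of -1.28 (SE 0.29, edgeR adjusted p = 0.0316). Again only replicate 4 at 9 weeks lay within the older range.

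Rank 91 was the sole member called lower whose ages did not overlap, with 1837, 1705, 997, 832 and 1919 TMM-scaled CPM at 9 weeks and 353, 617, 802, 785 and 538 at 27 weeks. It fell by 1.24 on the log2 scale (SE 0.25, edgeR adjusted p = 0.0252). Rank 92, whose row adjoins that of rank 91 in the table, fell by 1.11 (SE 0.24, edgeR adjusted p = 0.0283), and the ratio of the pair stayed between 0.844 and 1.14 in all 20 libraries. Whether the pair share reads in counting, and so are not separate measurements, was not tested. The trio at the top of the block had larger fitted changes and missed the threshold, with log2 changes of -1.72 for rank 2 (SE 0.48, adjusted p = 0.0563), -1.74 for rank 3 (SE 0.52, adjusted p = 0.0678) and -1.66 for rank 6 (SE 0.50, adjusted p = 0.0692, all edgeR). Block C had 0 of 9 fitted changes above 0, with a median of -1.28, and -1.21 with library totals alone.

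The 2 members called higher in older fish were in block A. Rank 17, of 1389 bases, rose from 3549.6, 3590.0, 3451, 3798 and 3493 to 4901, 5029, 4371, 4171 and 5208 TMM-scaled CPM. Every 27-week library lay above every 9-week library. The log2 change was 0.40 (SE 0.10, edgeR adjusted p = 0.0398). Rank 32 rose by 0.37 on the log2 scale (SE 0.10, edgeR adjusted p = 0.0476). All 48 members of block A had a fitted log2 change above 0, with a median of 0.20, or 0.25 with library totals alone. As they were grouped for varying together, their shared sign is not 48 separate results. Block B had 0 of 11 above 0, with a median of -0.71, and 0 of the 11 passed. Within it rank 72, of 330 bases, had the most negative change of all members, at -2.06 (SE 0.62, edgeR adjusted p = 0.0682). Rank 72 averaged 476 CPM at 27 weeks, so it too was a member only through its 9-week levels.

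In CPM, 6 members had all 27-week libraries above all 9-week libraries (3.51% of genes) and 1, rank 91, had them below (2.15% of genes). In TMM-scaled CPM these counts were 5 (3.07% of genes) and 1 (2.89% of genes). These counts by age also rest on single libraries. Replicates 1 to 5 at 9 weeks were left out in turn, and calls are given as higher and lower. The 2 and 4 members called became 0 and 1, 0 and 0, 7 and 8, 0 and 7, and 1 and 2. Of all genes, the same fits called 0.795% and 0.9504%, 0.0536% and 0.0375%, 4.76% and 4.67%, 1.095% and 1.23%, and 1.1045% and 1.47%. Replicates 1 to 5 at 27 weeks were then left out in turn. The members called became 0 and 0, 0 and 0, 0 and 2, 1 and 3, and 0 and 0. Of all genes, these fits called 0.236% and 0.268%, 0.209% and 0.118%, 0.546% and 0.8195%, 1.25% and 1.201%, and 0.145% and 0.134%. Calls over all genes thus swung too, from the lowest without replicate 2 at 9 weeks to the highest without replicate 3 at 9 weeks.

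Between 1% and 0.1% at 9 weeks, 0 members were higher and 1 was lower at the larger dose, while 8.43% and 10% of all 18808 genes tested were called. At an unadjusted p under 0.05, 0 members were higher (14.1% of all genes) and 2 lower (17.6% of all genes), and DESeq2 called 0 higher and 1 lower, against 9.30% and 12.55% of all genes. The members' median log2 change was -0.03, against -0.04 for all genes, and with library totals alone it was 0.07 against 0.04. The single member was rank 31 (Nfu_g_1_015914, 1215 bases), the same that was higher at 10% than at 1%. Its TMM-scaled levels were 2575, 2754, 2919, 3879.6 and 5052 CPM at 0.1% and 1565, 1366, 2545, 1185 and 1907 CPM at 1%, without overlap. It fell by 1.00 on the log2 scale (SE 0.22, edgeR adjusted p = 0.00521), and it passed in 10 of 10 fits with 1 library left out and in the 8 other settings tried. The table also changed between these groups, and dose and table cannot be told apart. Without replicates 1 and 4 at 0.1% the members' median was -0.23, against 0.01 for all genes. In that fit 3 members were called lower, against 4.58% of all genes. In CPM, 1 member had all 1% libraries above all 0.1% libraries (6.74% of genes) and 0 had them below (1.19% of genes). In TMM-scaled CPM 0 lay above (5.08% of genes) and 1, rank 31, below (3.56% of genes).

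Between 10% and 0.1%, edgeR called 0 of the 100 members and 0% of all genes in either direction. At an unadjusted p under 0.05, 28 members were higher (9.3% of all genes) and 3 lower (11.2% of all genes), and DESeq2 called 1 member higher and 0 lower, against 2.22% and 2.75% of all genes. The fitted log2 change was above 0 in 78 members and in 49.7% of all genes, with a median of 0.25 for the members against 0.00 for all genes. With library totals alone the median of all genes was -0.14. Without replicates 1 and 4 at 0.1% the members' median dropped to 0.04 against 0.04 for all genes, so the difference rests on those 2 libraries. Without replicates 1 and 2 at 10% it was 0.31 against -0.05, with 82 members above 0. In CPM, 5 members had all 10% libraries above all 0.1% libraries (0.617% of genes) and 0 had them below (1.7% of genes), and in TMM-scaled CPM the counts were 2 (1.42% of genes) and 0 (1.33% of genes). Rank 34 had the largest fitted change, at 1.798 (SE 0.74, edgeR adjusted p = 0.19), with levels of 966, 2056, 2022, 314 and 702 CPM at 0.1% and 6881, 4894, 4157, 3054 and 1379.9 CPM at 10%. Its lowest 10% library lay inside the 0.1% range.

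**Figure D5:**
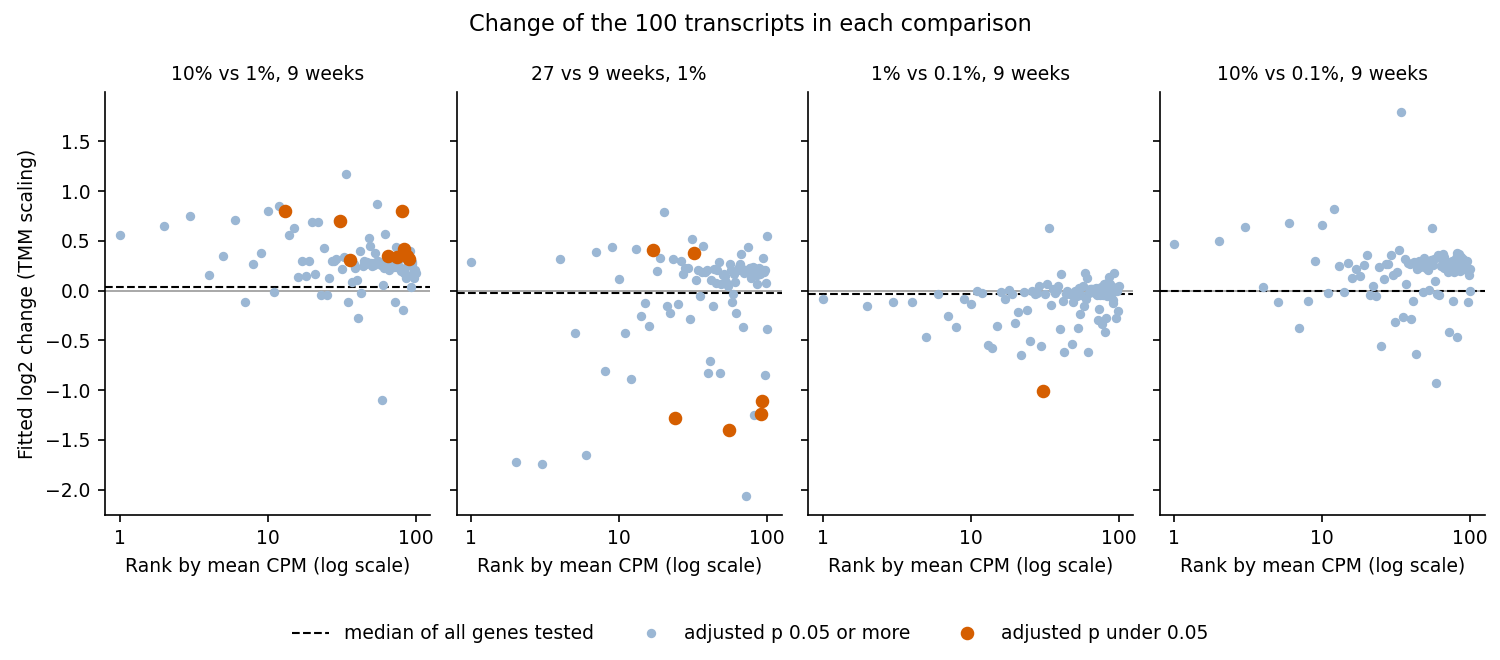
Fitted log2 change (edgeR, TMM scaling) of each member against its rank in the 4 comparisons, with members past an adjusted p of 0.05 in orange and the median of all genes tested as a dashed line. Called members number 9 and 0 (higher and lower) for 10% against 1%, 2 and 4 for 27 against 9 weeks, 0 and 1 for 1% against 0.1% and 0 and 0 for 10% against 0.1%.

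Set beside the next most abundant genes, the members were called at 9 higher and 0 lower of 100 for 10% against 1%, and ranks 101 to 1000 at 5.33% and 3.33%. For 27 against 9 weeks the members stood at 2 and 4 of 100 and ranks 101 to 1000 at 2.89% and 3.22%. For 1% against 0.1% they stood at 0 and 1 of 100 against 5.89% and 6.33%. Whether the members differ from those genes in this respect was not tested.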

How the data were processed

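Skin RNA was extracted and made into libraries with a TruSeq v2 kit, per the labels' protocols, and per the submitters' processing notes the tools were featureCounts 1.4.6-p4, STAR 2.4.1d and CASAVA 1.8.2. No genome build, annotation or strand setting is given in the sources used here. Counts were deposited raw, as whole reads for each gene, in a table of 15 libraries and a table of 5. The authors also deposited RPKM values. Their divisors cycle through library totals every 35 rows, so deposited RPKM of members are 0.549 to 1.39 times those recomputed with 1 total per library, and they served only to recover gene lengths (19308 genes, divisors within 0.000397% of library totals). In all, 10 count columns and 9 RPKM columns match no sample described here and were not used, and 1 RPKM column is held in duplicate.

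Libraries were grouped by labelled dose and age, with 5 per group. No pair of replicates agreed within sampling noise over the members (smallest chi-square per degree of freedom 883). The members, blocks and lists were chosen with earlier results of these data known. Lists of genes by function and of cell type markers could not be applied without names. The rule for named genes took the 20 highest members, the most and least variable member, and 3 genes on either side of rank 100. Of the members past the threshold it took the 5 largest changes each way per comparison. The text gives part of them, and also members outside the rule, such as ranks 34, 59 and 72, which did not pass. Fits were made across all genes with edgeR 4.0.16 in R 4.3.3 (filterByExpr, TMM, quasi-likelihood, Benjamini-Hochberg over all genes), using the 15 libraries of the first table for 10% against 1% and for age, and all 20 otherwise. DESeq2 1.42.0, other scalings, filters and sample sets, and leaving out libraries were alternatives. Tested on simulated data for 10% against 1%, the fit over 18473 genes made 96 calls, of which 2 were false, and recovered 9 of 67 genes simulated at 1.5-fold, 29 of 67 at 2-fold and 56 of 66 at 4-fold. For age it made 97 calls, of which 6 were false, and recovered 8, 27 and 56 of the same numbers. The simulated counts were drawn independently for each gene, with 200 genes changed. Apart from those genes, expected levels differed between libraries only by their totals. The real libraries differ from this in co-variation, in outlying libraries and in TMM factors, so these rates need not hold for them.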

Additional observations from a re-analysis of the deposited data

Results flagged for a closer look

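Among 184 groups of 5 values, for named members and blocks, 5 held a library far from the other 4 by Dixon's criterion, which chance alone meets in about 1 group in 20. At 27 weeks, replicate 1 had 7534 CPM of rank 14, with the others at 2317 to 3230.3 CPM, and 2.05% of reads in block E, to which rank 14 belongs, with the others at 0.765% to 1.08%. In 9-week fish at 1%, replicate 3 had 4935 CPM of rank 18, with the others at 3595 to 3944 CPM. At 10%, replicate 4 had 4028 CPM of rank 19, with the others at 3295 to 3481 CPM, and replicate 1 had 1308 CPM of rank 91, with the others at 1652 to 1770.5 CPM.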

How the results depend on the processing

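No paired analysis was possible because replicate numbers only name libraries in accession order and nothing in the labels pairs them across groups. No result of a member called in a comparison changed sign under any alternative, but most calls by dose and age were lost under some. Shares of all genes called in the same fits and direction are given in brackets. For 10% against 1%, members called higher numbered 9 (4.22%), and 0 with library totals alone (2.21%), 2 without a filter (2.82%) and 34 with DESeq2 (6.68%). They numbered 0 in a fit of only the 10 libraries (0.969%), 0 in a fit of all 20 (3.37%) and 2 without both 10% libraries that stood apart (1.28%). Members called lower numbered 1 with library totals alone (16.9%) and 1 with DESeq2 (7.57%). For age, members called higher numbered 0 without a filter (1.22%), 10 with DESeq2 (5.19%) and 0 in a fit of 10 libraries (0.272%). They numbered 0 in a fit of 20 (1.28%) and 1 without both 10% libraries (2.404%). Members called lower by age numbered 4 without a filter (1.3005%), 8 with DESeq2 (5.66%) and 0 in a fit of 10 libraries (0.300%). They numbered 4 in a fit of 20 (0.973%) and 4 without both 10% libraries (3.16%). For 1% against 0.1%, 3 were called lower (4.58%) without both 0.1% libraries that stood apart, and for 10% against 0.1% DESeq2 called 1 higher (2.22%). The causes were not tested. Leaving out 1 library gave 0 to 12 members higher (1.18% to 5.65%) and 0 to 1 lower (2.26% to 7.37%) for 10% against 1%. For age it gave 0 to 7 higher (0.0536% to 4.76%) and 0 to 8 lower (0.0375% to 4.67%). For 1% against 0.1% it gave 0 to 0 higher (6.39% to 9.29%) and 1 to 2 lower (5.61% to 11.97%). For 10% against 0.1% it gave 0 to 0 in both directions (at most 0.00525%). Shares of reads moved to 33.5% to 34.0% at 27 weeks, 35.1% to 39.1% at 0.1%, 41.4% to 42.3% at 10% and 35.3% to 37.6% at 1%, and membership kept 98 to 100 of 100. With each library's own 100 highest genes the share at 27 weeks was 34.6%, and choosing per length kept 62 members. The median correlation of 0.16 was 0.37 on TMM-scaled levels, 0.16 on deviations from group means and 0.11 without both 0.1% libraries. Depth limited none of these values.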
